A study of Strongylocentrotus purpuratus with 6 samples.

Results

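The locus of Dach on Scaffold1640 is described here from the RNA polymerase II (Pol II) peaks that lie on it in 20 h embryos of the purple sea urchin Strongylocentrotus purpuratus. Dach carries 23 of the 389 cis-regulatory modules (CRMs) that were tested in reporter constructs, more than any other of the 37 genes. The CRMs were found by name in the study's list of constructs. The locus runs from the start of the first Dach CRM to the end of the last, with 2 kb added on each side, and all Pol II peaks that share at least 1 bp with it were taken, 41 of the 554846 peaks of the whole list. The gene was chosen by the reporter activity and the Pol II cover of its CRMs, both known from earlier work on these data, so its values are given as a description with no test. Only the names, the positions and the active or inactive class of the constructs were used from the list of constructs; reporter and other signal values were not used.

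The samples were 3 Pol II ChIP libraries from hatching blastulae at 20 h and 3 input libraries, 1 from each of the same chromatin extracts. All were whole embryos fixed with formaldehyde. The labels give no genotype and no treatment other than fixation. The antibody, 8WG16, binds the repeated C-terminal tail of the largest Pol II subunit. The authors combined the replicates before peak calling, and the 1 list that resulted gives where each peak starts and ends without a height or a read number. No value per sample, no spread between replicates and no depth per peak can therefore be given, and a strongly and a weakly bound stretch of equal length look the same.

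Dachshund proteins are nuclear cofactors of transcription, first described in the leg and eye of Drosophila, where they act in the retinal determination network together with the Sine oculis and Eyes absent proteins. Genes of this kind are often regulated by enhancers spread over long introns and flanks. Pol II is found at promoters, at many enhancers and along the body of transcribed genes, so a peak inside an intron can mark either a regulatory element or passing polymerase, and a list of positions does not separate them.

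The span of the Dach locus covers positions 108645 to 208695 of Scaffold1640 (genome version 3.1, counted from 1), a length of 100051 bp. The letters in the CRM names, read as downstream, intron and upstream, put 1 downstream CRM at the low end, then 16 intronic CRMs, then 6 upstream CRMs at the high end. The intronic CRMs reach from 114208 to 179629 and the upstream CRMs from 186278 to 206695. A gene annotation of this genome version was not used here, so exons and the start site of Dach were not placed. Dach_If_07-3 and Dach_If_07-2 share 924 bp, Dach_If_02 and Dach_If_01 share 1054 bp, and Dach_Uf_01 and Dach_Uf_02 share 848 bp, so these pairs are not separate measurements.

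Pol II peaks covered most of the stretch that holds the intronic CRMs of Dach and a smaller part of its upstream side. Peaks lay on 74.1% of the span. They lay on 90.5% of the intronic stretch of 65422 bp and on 33.7% of the upstream stretch of 20418 bp. The intronic stretch was touched by 18 peaks with a median length of 1445 bp (quartiles 735 and 4715 bp). The upstream stretch was touched by 16 peaks with a median of 344 bp (quartiles 196 and 540 bp). Peaks were thus fewer per length and longer over the introns, at 2.75 peaks per 10 kb against 7.84 per 10 kb upstream. Between the last intronic and the first upstream CRM, 7 peaks covered 62.6% of 6648 bp.

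**Figure D1:**
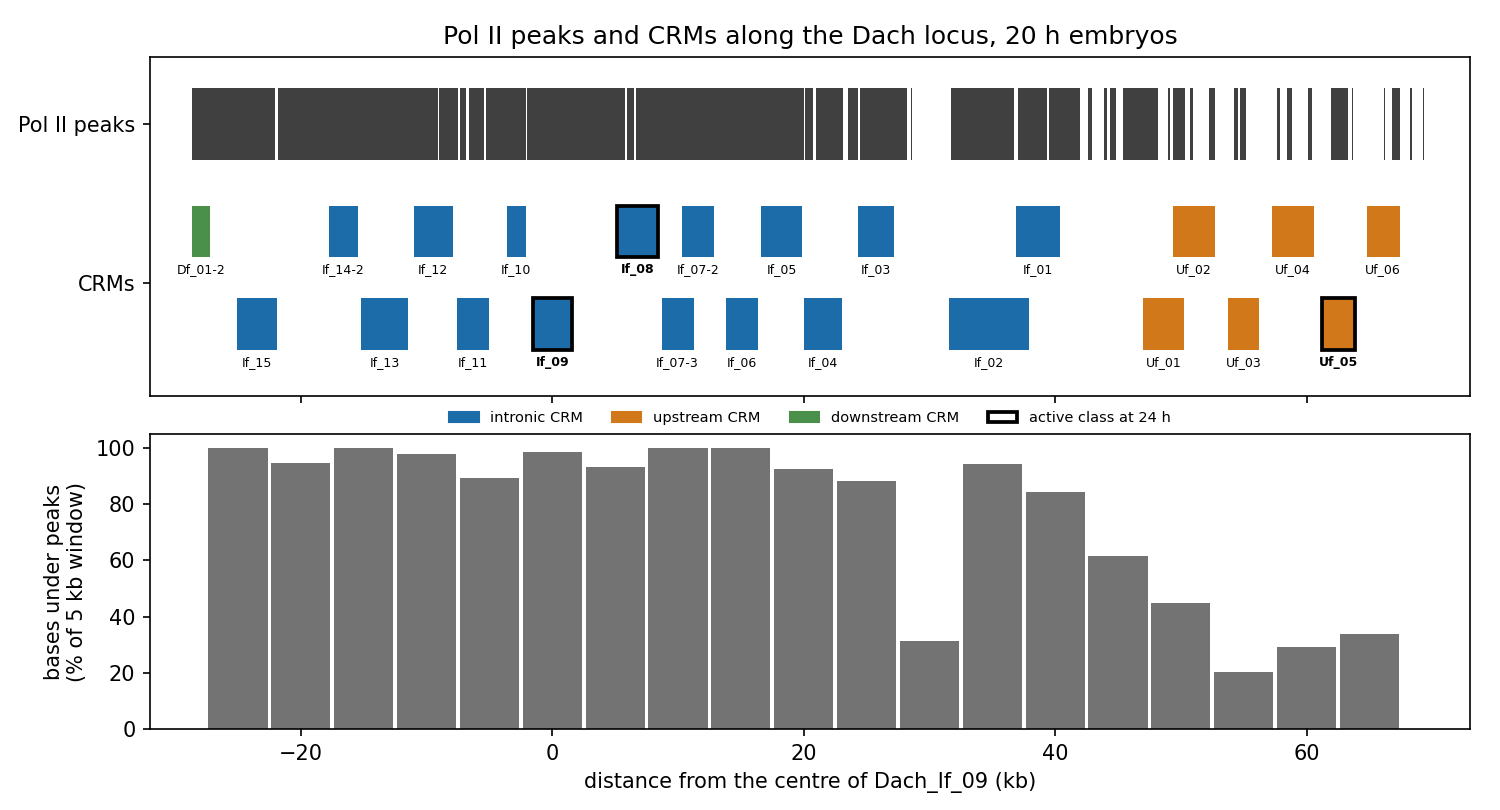
Pol II peaks (dark bars, top) and the 23 Dach CRMs (coloured boxes on 2 rows so that overlapping ones can be seen, with a black outline for the class active at 24 h) against the distance in kb from the centre of Dach_If_09, and below them the share of bases under peaks in windows of 5 kb (y axis, %). The bars are nearly continuous up to Dach_If_03 and stop for 3102 bp before Dach_If_02. Beyond the last intronic CRM they break into short pieces, apart from peaks of 1301 and 2785 bp. The 5 windows wholly beyond that CRM hold 20.2 to 61.5%.

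In windows of 5 kb laid out from the centre of Dach_If_09, 11 of the 12 windows inside the intronic stretch were covered over more than 75%, with a median of 94.5%. The exception was covered over 31.4% and holds the longest stretch of the span with no peak, from 167878 to 170979 (3102 bp), which lies between Dach_If_03 and Dach_If_02 and takes in only the edge of Dach_If_02. All of the 5 windows upstream of the intronic CRMs were below 75%. They had a median of 33.9%, and the highest, at 61.5%, was the one next to the introns. The next longest stretches with no peak were 194441 to 196894 (2454 bp), at the adjoining ends of Dach_Uf_03 and Dach_Uf_04, and 108645 to 110582 (1938 bp), at the low edge of the span. Assembly gaps and repeated sequence, to which reads may not map, were not examined in any of these stretches.

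The Pol II block had a sharp edge on the downstream side. The first peak of the span began at 110583, which is 62 bp before Dach_Df_01-2, and the nearest peak outside lay at 96847 to 97740, leaving 10904 bp without a peak up to the edge of the span. In the 20 kb beyond that edge, 1 peak covered 4.47%. From 110583 to 162356, a distance of 51774 bp, 12 peaks followed each other at gaps of 53 to 268 bp and covered 96.7% of the sequence. On the upstream side there was no comparable edge. The last peak inside was 146 bp long and ended 60 bp before the limit, the first outside was 431 bp long and began 2851 bp beyond it, and in the next 20 kb 24 short peaks covered 26.5%. The rest of Scaffold1640, up to its last peak, was covered over 19.6% of 344963 bp. It held runs with no peak of up to 29149 bp before the span and 37114 bp beyond it. Assembly gaps and repeated sequence were not examined there or at the downstream edge.

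Long peaks made up most of this cover. Of the 41 peaks at Dach, 14 were 1000 bp or longer (34.1%), against 4.71% of all peaks of the list, and 4 were longer than 6000 bp (9.76%), against 0.0955% of all peaks. The 4 longest held 54.5% of the covered bases of the span, whereas peaks over 6000 bp held 2.87% of the covered bases of the whole list. The 10 peaks of 1000 to 6000 bp held 31.7% and the 27 shorter ones 13.8%. Within the upstream stretch the proportions were the other way round, and peaks under 1000 bp held 83.4% of the covered bases. Peaks longer than 6000 bp touched the introns and the downstream CRM only. Long peaks were not particular to Dach. At Chordin, compared below, 14 of 34 peaks were 1000 bp or longer and 6 were over 6000 bp, both higher shares than at Dach. Peaks of 1000 bp or more were 21 of 93 at Lim1, 7 of 39 at Tbx23, 8 of 76 at Prox and 1 of 46 at Six12.

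**Figure D2:**
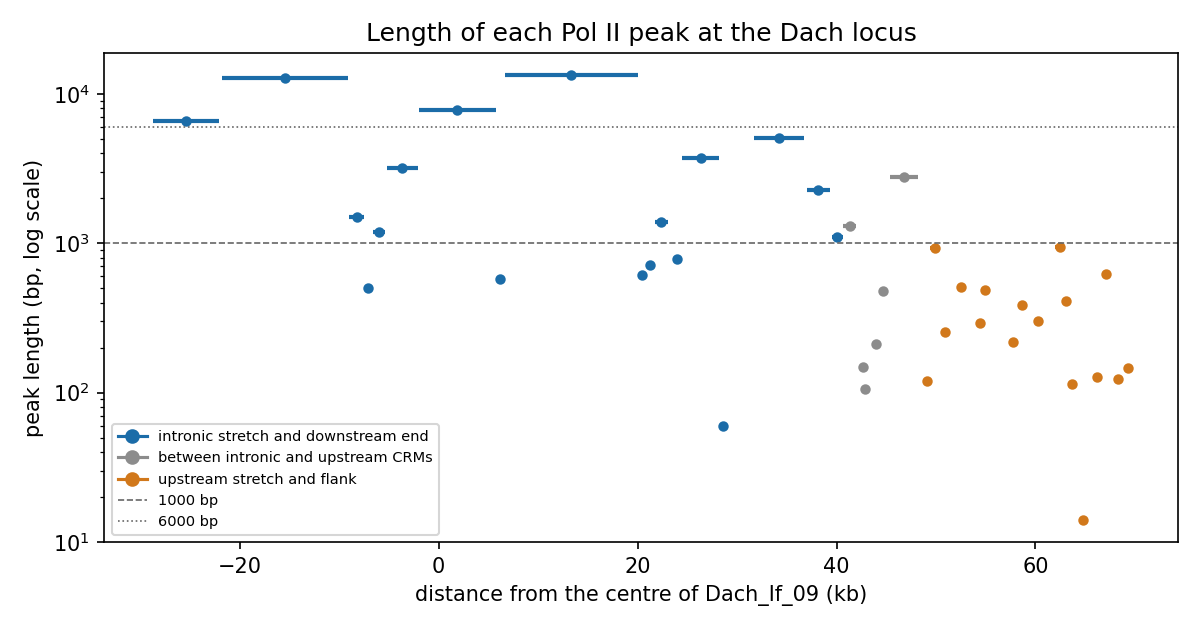
Length of each of the 41 Pol II peaks (y axis, bp, log scale) against its position (x axis, distance in kb from the centre of Dach_If_09; horizontal bars show the extent of the peak and points its middle), coloured by stretch. The 4 peaks above 6000 bp lie among the intronic CRMs and at the downstream end, and no peak that lies mostly in the upstream stretch or flank reaches 1000 bp.

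The longest peak ran from 145936 to 159265 (13330 bp, the 90th longest of the whole list). It enclosed Dach_If_07-3, Dach_If_07-2, Dach_If_06 and Dach_If_05 entirely and reached into Dach_If_08 by 1700 bp and into Dach_If_04 by 4 bp. The next, from 117455 to 130178 (12724 bp), enclosed Dach_If_14-2 and Dach_If_13 and covered most of Dach_If_12. The peak from 137273 to 145026 (7754 bp) enclosed Dach_If_09 and reached into Dach_If_08. The peak from 110583 to 117186 (6604 bp) enclosed Dach_Df_01-2 and most of Dach_If_15, and the fifth, from 170980 to 176016 (5037 bp), lay within Dach_If_02. The longest peak thus touched 6 neighbouring CRMs, whose shares are not separate measurements.

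All 23 Dach CRMs overlapped a peak, which is near the background, since 98.5% of the CRMs of all genes did. Wholly inside 1 peak lay 9 of the 23 (39.1%), where 20.1% of the CRMs of all genes did so. Of these, 8 were intronic, out of 16 (50%), and among all genes 57 of 166 intronic CRMs were enclosed (34.3%). None of the 6 upstream Dach CRMs was (0%), against 9 of 133 upstream CRMs of all genes (6.77%). At the loci compared below, 8 of 21 CRMs lay wholly inside 1 peak at Chordin and 8 of 16 at Tbx23. At Lim1 it was 1 of 19, at Prox 2 of 20 and at Six12 0 of 12. These counts are a description, since 4 of the 8 enclosed intronic CRMs lie in the same peak and the values for all genes include Dach.

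**Figure D3:**
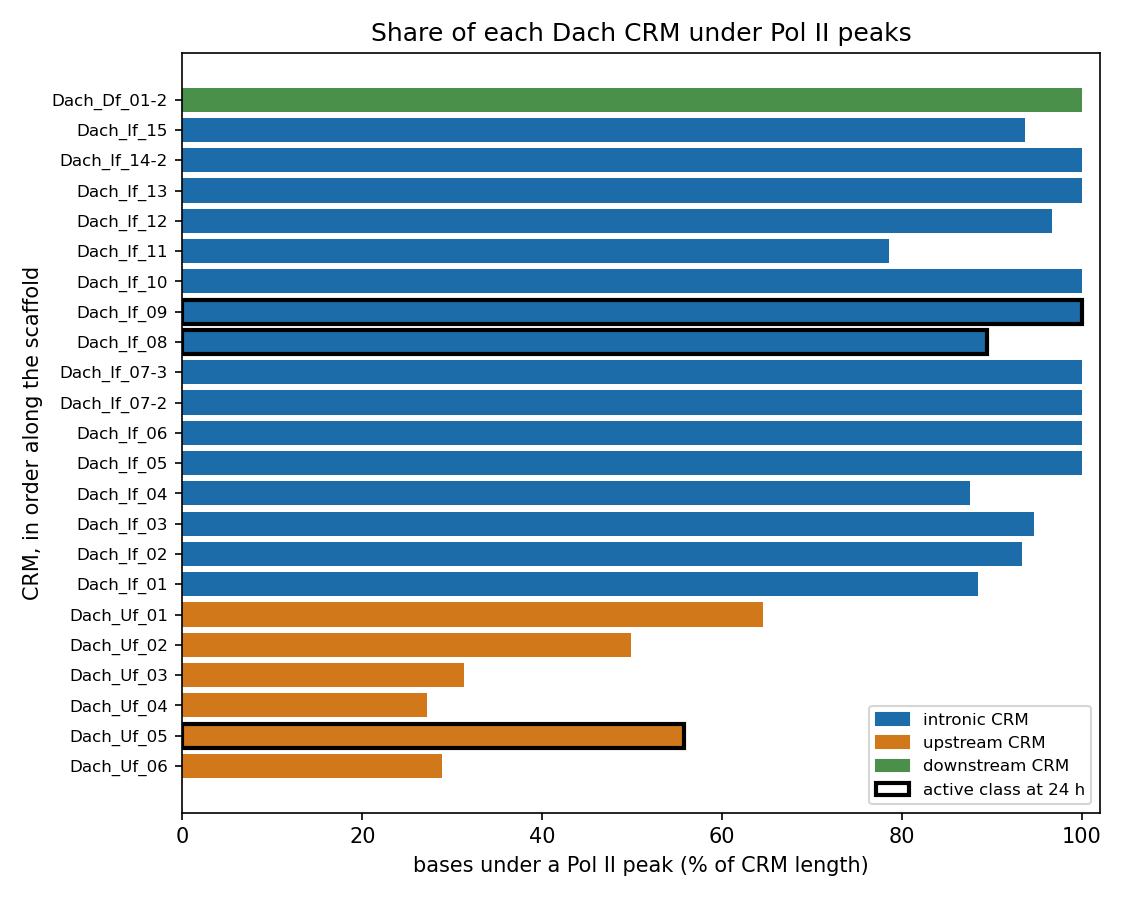
Share of each of the 23 Dach CRMs that lies under a Pol II peak (x axis, % of CRM length), in order along the scaffold from the downstream CRM at the top to the outermost upstream CRM at the bottom, with a black outline for the class active at 24 h. The 16 intronic CRMs lie between 78.6 and 100%, and the 6 upstream CRMs between 27.2 and 64.6%.

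The mean covered share was 95.2 ± 6.35% for intronic CRMs (SD over 16 CRMs) and 42.9 ± 15.9% for upstream CRMs (6 CRMs), a difference of 52.2 percentage points. The ranges did not overlap. The lowest intronic value was that of Dach_If_11, at 78.6%, where 4 peaks were separated by short gaps, and the highest upstream value was that of Dach_Uf_01, at 64.6%. In bases, Dach_If_11 had 1979 under peaks of 2519, and Dach_Uf_01 had 2078 of 3219, because Dach_Uf_01 is longer. The shares of CRM length, and not the bases, therefore separate the position classes. Counted once where CRMs overlap, 95.0% of the intronic CRM sequence lay under peaks, against 78.5% of the sequence between intronic CRMs. Most of this difference lay in the 3102 bp stretch with no peak, of which 2962 bp lie between CRMs, and without it 93.9% of the sequence between intronic CRMs was covered. Upstream, peaks covered 40.7% of the CRM sequence and 1.38% of the 3614 bp between CRMs.

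Among the intronic CRMs, 8 were covered completely. These were Dach_If_14-2, Dach_If_13, Dach_If_10, Dach_If_09, Dach_If_07-3, Dach_If_07-2, Dach_If_06 and Dach_If_05, each within 1 peak. Dach_If_12 was covered over 96.7%, Dach_If_03 over 94.7%, Dach_If_15 over 93.7% and Dach_If_02 over 93.3%. The longest of all Dach CRMs, Dach_If_02, with 6331 bp, had 5908 bases under 2 peaks. Dach_If_08 (89.4%), Dach_If_01 (88.4%) and Dach_If_04 (87.6%) followed, above Dach_If_11. What separated the 8 incompletely covered CRMs from the others was gaps of no more than 283 bp, the longest uncovered run in any intronic CRM, found in Dach_If_02. The single downstream CRM, Dach_Df_01-2, was covered over all of its 1385 bp.

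Upstream, cover did not change in one direction with distance from the introns. Dach_Uf_01 (64.6%) and Dach_Uf_02 (49.9%) lay nearest to them and share 848 bp. Dach_Uf_03 was covered over 31.3%, Dach_Uf_04 over 27.2%, Dach_Uf_05 over 55.8% and Dach_Uf_06 over 28.9%. Dach_Uf_01 owed 1140 of its 2078 covered bases to a peak of 2785 bp, from 184633 to 187417, which begins 1645 bp before the CRM on the intron side. The longest peak on any other upstream CRM was one of 951 bp, in Dach_Uf_05. At the other end of the scale, Dach_Uf_06 carried the shortest peak of the locus, of 14 bp, which is less than the length of a read (50 bp). Each upstream CRM had an uncovered run of at least 757 bp, against none above 283 bp in any intronic CRM.

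The class given to the constructs from the reporter assay put 3 of the 23 Dach CRMs as active at 24 h, namely Dach_If_09, Dach_If_08 and Dach_Uf_05. Dach_If_09 was also in the active class at 12 h, and so was Dach_If_05, which is inactive at 24 h. The other 19 were inactive at both times. A reporter construct tests a CRM away from its own place on the chromosome, where the Pol II peaks were measured, and the peaks are from 20 h only.

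Active and inactive intronic CRMs of Dach overlapped in their Pol II cover. The active Dach_If_09 was covered over 100% and the active Dach_If_08 over 89.4%. The 14 intronic CRMs inactive at 24 h ranged from 78.6 to 100% with a median of 98.4%. Of the 14, 7 were covered completely, like Dach_If_09, and these include Dach_If_05, which was active at 12 h. The mean was 94.7% for the active and 95.2 ± 6.50% (SD) for the inactive intronic CRMs. With 2 active CRMs, and with CRMs of 1 gene not being replicates, no test was made, and a share that cannot exceed 100% leaves no room to see more Pol II at a completely covered CRM. Over the other 36 genes, the mean was 82.2 ± 28.5% for 24 active and 78.0 ± 25.1% for 126 inactive intronic CRMs. The medians lay further apart, at 99.5% for the active and 87.6% for the inactive ones. Wholly inside 1 peak lay 12 of the 24 active and 37 of the 126 inactive ones. This difference was not tested.

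The longest peaks on the active CRMs of Dach lay within the range of those on the inactive ones. Dach_If_09 (positions 137698 to 140831) lay within the 7754 bp peak, which began 425 bp before it and ran on for 4195 bp beyond it, so that Dach_If_09 took up 40.4% of the peak. A gap of 75 bp separated this peak from the one over Dach_If_10, which is completely covered and inactive. Dach_If_08 had 579 bases under the end of the same peak as Dach_If_09, 572 under a peak of its own and 1700 under the longest peak of the locus. That longest peak also enclosed 4 CRMs that were inactive at 24 h. Of the 14 inactive intronic CRMs, the longest overlapping peak had a median of 12724 bp (range 2282 to 13330 bp). It was 7754 bp for Dach_If_09 and 13330 bp for Dach_If_08. The peak of 13330 bp is the same one that sets the upper end of the inactive range. The value of Dach_If_08 therefore could not lie outside that range. Several of the 14 share the same long peaks, so these lengths are not separate measurements. One of them, Dach_If_04, shares only 4 bp with the peak of 13330 bp. Over the other genes this median was 8757 bp for the 24 active and 2254 bp for the 126 inactive intronic CRMs, and with 2 active intronic CRMs at Dach no difference between Dach and the other genes was tested.

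Upstream, the active Dach_Uf_05 had 1475 bases under 3 peaks, of 951, 409 and 115 bp, all wholly within it. It was covered over 55.8%, which is second to the inactive Dach_Uf_01 (64.6%) and above the inactive Dach_Uf_02 (49.9%) and the remaining inactive upstream CRMs (27.2 to 31.3%). The mean over the 5 inactive upstream CRMs was 40.4 ± 16.3% (SD), a spread that includes the value of Dach_Uf_05. By covered share Dach_Uf_05 was number 251 of all 389 CRMs. The upstream CRM in the active class was thus less covered than every inactive intronic CRM of the gene. Over the other genes, the mean was 73.9 ± 21.3% for 36 active and 50.9 ± 26.0% for 91 inactive upstream CRMs. With 1 active upstream CRM at Dach, no difference was tested.

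Set beside the other genes, whose spans were laid out in the same way, the Dach locus ranked 6th of 37 by the share under peaks, at 74.1%, with a median of 58.6% and a range of 13.9 to 85.5% over the other loci. Its span was the second longest. It had 4 of the 530 peaks over 6000 bp and ranked second in their number, behind Chordin with 6, and its 14 peaks of 1000 bp or more shared rank 3 with Chordin. It ranked 33rd in peaks per 10 kb, with 4.10, where the other loci had a median of 8.15. No test was made of these ranks, since Dach was picked with such values known.

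**Figure D4:**
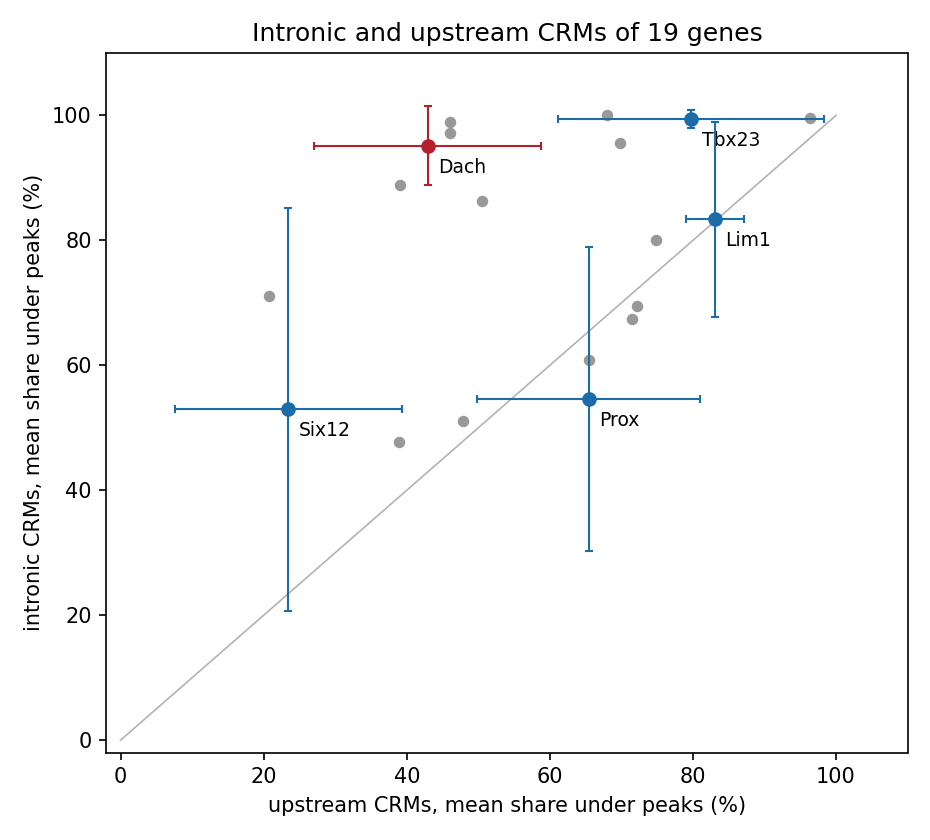
Mean share of CRM length under Pol II peaks for intronic CRMs (y axis, %) and upstream CRMs (x axis, %) of the 19 genes with at least 3 CRMs of each class. Dach (red) and Six12, Prox, Lim1 and Tbx23 (blue) have bars of 1 SD over CRMs, other genes are grey, and the line marks equal shares. Dach, at 95.2 and 42.9%, lies far above the line, while Lim1, at 83.4 and 83.1%, lies on it.

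In 19 genes with at least 3 intronic and 3 upstream CRMs, the mean share was higher in the introns in 15. The difference at Dach, 52.2 percentage points, was just behind the 52.9 points of Ese, the highest of the 19. The median over the other 18 was 14.2 points. The limit of 3 leaves out Nfe2 (3 intronic and 2 upstream CRMs, 62.3 points) and Gsc (2 intronic and 4 upstream CRMs, 60.2 points), and with at least 2 CRMs of each class Dach was number 4 of 27 genes. Every intronic CRM was above every upstream CRM in 6 of the 19 genes, of which Dach has the most CRMs.

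Six12 is named for the Sine oculis homeobox family, whose members work with Dachshund proteins in Drosophila, and is the only other gene of that network with CRMs in the list. Its locus ranked 35th, with 25.1% under peaks. Its 4 intronic CRMs were covered over 52.9 ± 32.3% (mean ± SD) and its 8 upstream CRMs over 23.4 ± 15.9%, so that both classes were less covered than those of Dach and the intronic spread was wider. No Six12 CRM was active at 24 h and none lay inside 1 peak, where the longest peak was 2257 bp.

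Chordin, a gene for a secreted inhibitor of BMP signals, had nearly the same intronic cover as Dach over the same number of CRMs, 95.5 ± 7.07% over 16, but more cover upstream, 69.8 ± 18.1% over 4 CRMs. At Tbx23 the share was 99.5 ± 1.44% over 8 intronic CRMs and 79.8 ± 18.6% over 4 upstream CRMs. At Lim1, 15 intronic CRMs were covered over 83.4 ± 15.6% and 3 upstream CRMs over 83.1 ± 4.03%. Prox had the reverse order, with 54.6 ± 24.4% over 7 intronic CRMs and 65.4 ± 15.6% over 7 upstream CRMs, and its longest peak was 1669 bp. These are means and SDs over CRMs of a gene and were not tested.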

How the data were processed

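The source was 1 list of Pol II ChIP-seq peaks. The authors combined 3 ChIP and 3 input samples, aligned 50 bp reads to genome version 3.1 and called peaks against input with MACS 1.4.2. Their methods name Bowtie 2 version 2.2.3 and the submitters' processing notes name Bowtie 1.0.1. The deposited list holds positions only (starts counted from 0, printed from 1), and depth is unknown.

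CRM positions and activity classes came from the study's list of constructs, with starts taken as counted from 0. Covered share is bases under a peak over length. Wilson intervals (95%) cover counting error only.

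The members and lists were chosen with earlier results of these data known. The rule named all Dach CRMs, the 5 longest peaks, peaks on CRMs active at 24 h, the 3 longest stretches with no peak, and Six12, Prox, Lim1 and Tbx23. Other items named, and the limits of 5 kb, 75%, 350 bp (gaps within the block from 110583 to 162356) and 3 CRMs per class, were chosen after values were seen. No test was run. Alternatives concerned peak length, joining of peaks, flank, overlap and the handling of CRMs. The code was tested on simulated data. Python 3.11.15, numpy 2.4.6, scipy 1.17.1 and matplotlib 3.10.9 were used.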

Additional observations from a re-analysis of the deposited data

How the results depend on the processing

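No paired analysis was possible because replicates were combined before peaks were called, which also left none to leave out. Of 60 recomputed values under 15 settings, none changed sign. Shares, counts and ranks are never negative, so this holds by construction for all but the intronic minus upstream difference. That difference was 52.2 to 58.8 percentage points over its alternatives. Of the 60, 44 stayed within 1.5 times (counts and ranks) or within the 95% Wilson interval over bases (shares). The other 16 moved beyond these limits. That interval is narrow, since each base counts as a trial.

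The share of the locus under peaks, 74.1%, was 73.1% with peaks of at least 150 bp, 72.2% with at least 300 bp, 75.4% with peaks joined over gaps of up to 200 bp, 76.8% with no flank and 65.3% with a flank of 10 kb. The intronic minus upstream difference, 52.2 percentage points, was 54.5 at 150 bp, 58.8 at 300 bp, 53.5 with gaps of up to 200 bp joined, 54.4 with overlapping CRMs merged and 57.8 with medians. Dach_If_08 was covered over 100% with gaps of up to 200 bp joined, like Dach_If_09, and Dach_Uf_05 over 51.4% with peaks of at least 150 or 300 bp. By construction, fewer peaks lower a share and joining raises it. The wider flank added sequence that was sparsely covered at this locus. All 23 CRMs had a peak of at least 300 bp. The number wholly inside 1 peak was 9, or 13 with gaps of up to 200 bp joined. The rank among 37 loci lay between 4 and 8. In alternatives added after the data were seen, the rank by intronic minus upstream difference, 2 of 19 genes, was 4 of 27 with at least 2 and 4 of 32 with at least 1 CRM of each class, and the share between intronic CRMs, 78.5%, was 93.9% without the longest stretch with no peak. The list gives no depth, which limits each value to presence and length of peaks.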
